A study of Homo sapiens with 6 samples.

Results

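The comparison described here set cells treated with an extract of the fruit of Brucea javanica, called FEBJ, against cells treated with DMSO, the solvent control. The cells were LX-2, an established human hepatic stellate cell line, wild type in every group and kept with the agent for 24 h. FEBJ and DMSO each had 2 libraries of total RNA, 4 of the 6 libraries of the series, and the members were chosen by these titles alone. The other 2 libraries came from LX-2 cells given cynaroside, a glucoside of the flavone luteolin, and they serve here as a second reference. An extract is a mixture, and neither its dose nor the amount of DMSO was given in the labels. Whether a pair of libraries came from separate cultures was not given either, so the spread between these libraries may be technical. The p-values measure only such spread, pooled over genes and over all 6 libraries, and do not follow the spread of a single gene.

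Stellate cells store vitamin A in the healthy liver and, once activated, contract, divide and lay down scar matrix. LX-2 cells resemble the activated state. The fruit of Brucea javanica is best known for its quassinoids, bitter terpenoids such as brusatol and bruceine that can block protein synthesis at the ribosome. Short-lived proteins and the transcripts they control are therefore among the first to move when cells meet such compounds. None of this background was measured in these libraries.

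Genes were read mainly from non-coding rows of the count tables whose exons lie opposite the exons of a single protein-coding gene. A row with fewer counts than the gene's own row was not read, so the median share of 7.09% that the own row held of the opposite rows' counts is in part fixed by this condition. Without the condition, over 1727 tested genes, the median share was 10.4%. This reading used 1825 rows with at least 50 bp of opposite exon, which stood for 1696 genes, of which 1440 passed the filter on low counts. The median overlap was 307 bp. A non-coding row can also hold its own RNA, and in these counts that RNA and reads from the gene opposite cannot be told apart. A level below is therefore the level of the opposite row, given in CPM (counts per 1e6 of the scaled library) for DMSO 1 and DMSO 2 and then for FEBJ 1 and FEBJ 2. Log2 fold changes are FEBJ over DMSO ± the standard error of the fit. "Rose" and "fell" are used where an adjusted p of 0.05 or less was reached in the quasi-likelihood test of edgeR, with p-values adjusted by Benjamini-Hochberg over all 1440 genes.

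Counts in gene rows came to 2537896 for DMSO 1, 3720981 for DMSO 2, 2507734 for FEBJ 1 and 3524136 for FEBJ 2. The rows used in the reading held 41.5 and 41.4% of those counts with DMSO, and 36.8 and 36.9% with FEBJ. Log-scale levels of the genes read correlated at 0.985 between the DMSO libraries and at 0.983 between the FEBJ libraries, against 0.833 to 0.839 between a DMSO and an FEBJ library. The own rows of stellate cell markers fitted the label in the DMSO libraries, where 13 of 15 markers had counts and 2, DCN and LUM, were at 0 in every library. Their counts summed to 3428 to 5173 in the DMSO libraries and to 393 to 503 in the FEBJ libraries. Markers of other cells differed by type. Hepatocyte markers were low and summed to 2 in each DMSO library and to 34 to 47 with FEBJ, with 9 of 15 at 0 in all libraries. Macrophage markers were low too and summed to 9 to 11 and 26 to 44, with 7 of 13 at 0. Lymphocyte markers summed to 55 to 60 with DMSO and to 12 to 25 with FEBJ, with 7 of 13 at 0. Endothelial markers summed to 380 to 563 and 447 to 597, nearly all from 1 gene, STAB1, with 6 of 13 at 0. Bile duct and epithelial markers summed to 4640 to 6798 and 3908 to 5483, mostly from the keratin gene KRT8, with 3 of 12 at 0. These sums were above those of the stellate cell markers with DMSO and with FEBJ. Their part in the results below was not tested. In bulk RNA, fewer cells of a type and less RNA per cell cannot be told apart.

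FEBJ changed most of the genes read. Of 1440 genes, 517 rose, 35.9% of those tested, and 498 fell, 34.6%, so that 70.5% changed, while 425 did not pass the threshold. Changes were often large: 300 genes rose and 290 fell by more than 2-fold, and 106 rose and 95 fell by more than 4-fold. The median log2 fold change over all 1440 genes was 0.05, with the 10th and 90th percentiles at -1.66 and 1.73. Gene groups are read below against these 35.9 and 34.6% shares and against this median, since with so many calls a few changed members in a group are no result by themselves. The FEBJ and DMSO libraries did not overlap in 1012 of the 1015 genes called, and this was so in 84% of all genes tested, called or not. It was also so in all 375 named genes called, and the rule for the largest changes required it. Statements below that the libraries of the groups lay apart therefore describe levels and add no support to a call.

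**Figure D1:**
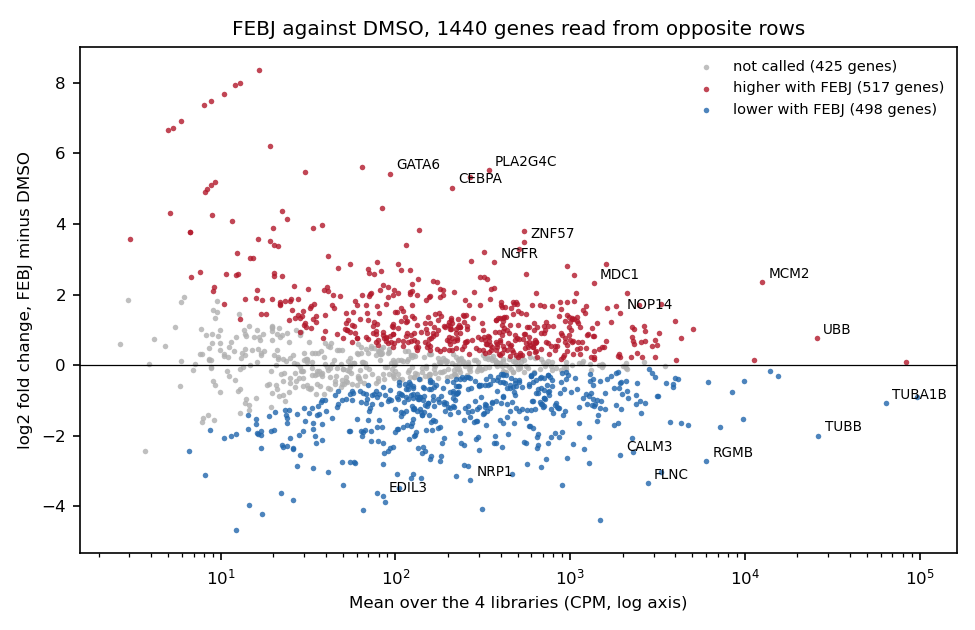
Log2 fold change of FEBJ over DMSO (vertical axis) against the mean level in CPM (horizontal log axis) for each of the 1440 genes read from opposite rows, coloured by whether the gene rose, fell or did not pass the threshold. The 517 rises and 498 falls lie on both sides of a median of 0.05, at high as well as low levels.

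Groups of genes with a shared function moved in different directions. Replication and repair genes, zinc finger genes, immediate early genes, genes of ribosome biogenesis and genes of the mitochondrial ribosome had medians well above that of all genes in this reading. Genes of the matrix, of TGF-beta signalling, of chromatin remodelling, of the cholesterol pathway and of protein folding in the endoplasmic reticulum had medians well below it in this reading. For chromatin remodelling the median came close to 0 in another setting. Of the 66 groups with at least 3 tested genes, 36 kept the sign of their median in each of the 17 alternative settings that left them at least 3 tested genes, and 30 did not. Of these 36, 26 had enough genes in every setting and 10 did not. The groups described with a direction below are among the 36 unless stated otherwise. The own rows of the same lists often moved differently, and their counts are given beside the groups described first, to be read against the 26% of 12012 tested rows that rose and the 24.8% that fell. Changes were harder to call in deposited rows in simulated counts. There 2% of rows changed 1.5-fold and 18% changed 2-fold were recovered, against 76 and 96% of genes in the reading. In the simulation all rows had the same dispersion and most were unchanged, while 50.8% of the deposited rows were called. These shares therefore need not hold for the real rows, and they do not bear on own rows called in the other direction. Few calls among own rows do not show that the genes were unchanged. Where no gene of a group was called in a direction by edgeR, the count was also 0 at an unadjusted p of 0.05 or less and 0 by DESeq2.

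**Figure D2:**
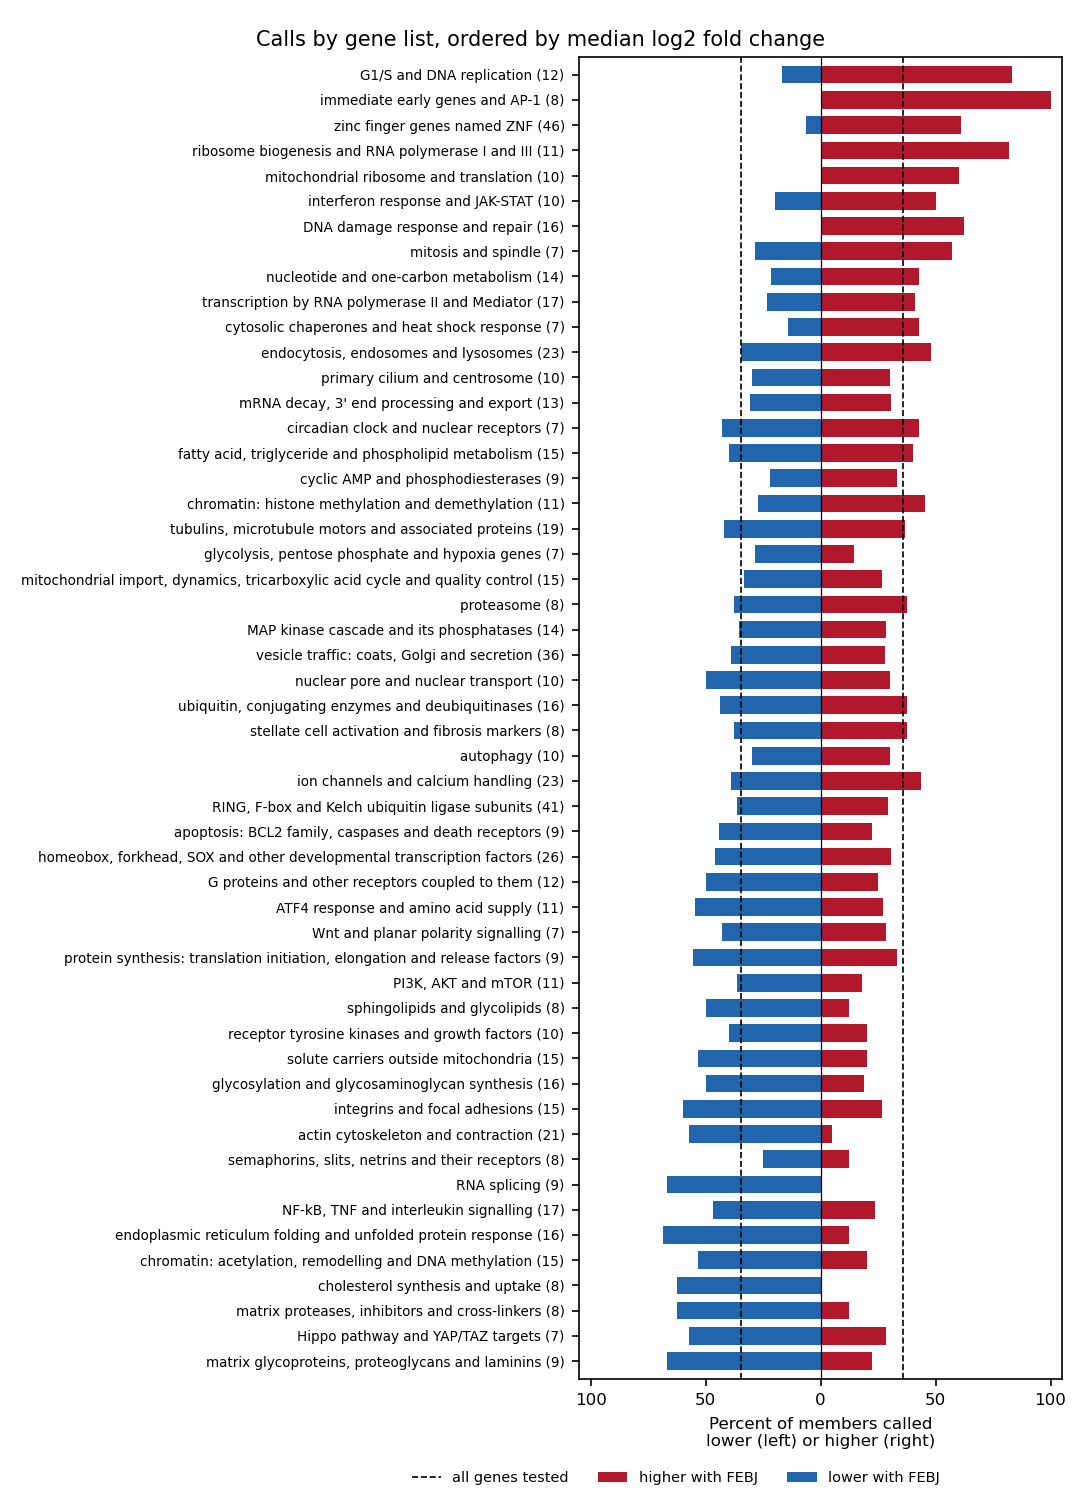
Percent of the tested genes that fell, to the left, or rose, to the right, with FEBJ. Each list shown had 7 or more tested genes (number tested in brackets), so smaller lists described in the text are absent. Lists are ordered by median log2 fold change, with dashed lines at the 34.6 and 35.9% of all genes. Zinc finger genes (28 of 46 rose, 3 fell) and actin genes (1 of 21 rose, 12 fell) lie on opposite sides, while the bars of lists such as mRNA decay stay near or inside the dashed lines.

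The largest rises were spread over unrelated functions. PLA2G4C, a cytosolic phospholipase A2 that frees fatty acids from membrane lipids, rose from 17.3 and 12.5 CPM to 641 and 695 CPM (log2 fold change 5.51 ± 0.22), a 45.7-fold higher level. CEBPA, a transcription factor that drives the differentiation of hepatocytes, fat cells and myeloid cells, rose from 14.2 and 11.1 CPM to 452 and 371 CPM (log2 fold change 5.03 ± 0.25). GATA6, a zinc finger factor of heart and endoderm development, rose from 4.07 and 4.18 CPM to 172 and 191 CPM (log2 fold change 5.42 ± 0.39), read from the rows AC091588.3 and GATA6-AS1. In these 3 genes both DMSO libraries were low and both FEBJ libraries were high. CCM2L, a relative of the vascular adaptor CCM2, rose from 11.2 and 13.9 CPM to 514 and 523 CPM (log2 fold change 5.33 ± 0.24). SLC25A25, a calcium-regulated carrier that moves ATP-Mg across the inner mitochondrial membrane, rose from 103 and 89.2 CPM to 969.9 and 886 CPM (log2 fold change 3.28 ± 0.15). ITPR1, the receptor through which inositol trisphosphate releases calcium from the endoplasmic reticulum, rose from 14.2 and 21.6 CPM to 123 and 154 CPM (log2 fold change 2.91 ± 0.33). H2BC6, a histone H2B gene, rose from 58.0 and 66.2 CPM to 589 and 571 CPM (log2 fold change 3.21 ± 0.16). NGFR, the low-affinity neurotrophin receptor and a known surface marker of stellate cells, rose from 79.4 and 90.6 CPM to 629 and 674 CPM (log2 fold change 2.93 ± 0.16).

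The steepest falls, beyond the fibrosis genes, included several genes of secreted or cell surface proteins. EDIL3, a secreted protein that binds integrins, fell from 152 and 163 CPM to 12.8 and 11.3 CPM (log2 fold change -3.71 ± 0.30). CCBE1, a secreted protein needed for lymphatic growth, fell from 1621 and 1655 CPM to 133 and 173 CPM (log2 fold change -3.40 ± 0.10). NRP1, a co-receptor for semaphorins and vascular growth factors, fell from 483 and 491 CPM to 45.2 and 54.9 CPM (log2 fold change -3.26 ± 0.18). In all 3, both FEBJ libraries lay far below both DMSO libraries, although groups that do not overlap were a condition for the largest changes. XYLT1, which starts glycosaminoglycan chains on core proteins, fell from 226 and 217 CPM to 32.5 and 17.6 CPM (log2 fold change -3.19 ± 0.25), and PAPSS2, which makes the sulfate donor for those chains, fell from 199 and 183 CPM to 19.7 and 14.8 CPM (log2 fold change -3.49 ± 0.27). TRHDE, a membrane peptidase that degrades thyrotropin-releasing hormone, fell from 166 and 123 CPM to 13.8 and 9.86 CPM (log2 fold change -3.62 ± 0.32). ELK3, an ETS family transcription factor, fell from 413 and 381 CPM to 44.3 and 45.8 CPM (log2 fold change -3.13 ± 0.18). RHOBTB3 fell from 849 and 819 CPM to 98.4 and 98.6 CPM (log2 fold change -3.08 ± 0.13).

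DNA replication genes mostly rose in this reading. Of 12 tested genes of the G1/S transition and replication, 10 rose and 2 fell, with a median of 1.06. Of 76 own rows of the list tested, 15 rose and 14 fell, with a median of -0.09. LIG1, the ligase that seals Okazaki fragments, rose from 569.8 and 624 CPM to 1691 and 1849 CPM (log2 fold change 1.56 ± 0.08). CHAF1A, a subunit of the factor that loads histones onto new DNA, rose from 229 and 195 CPM to 757 and 711 CPM (log2 fold change 1.80 ± 0.13). In both genes the FEBJ libraries lay well above the DMSO libraries. RBL2, a pocket protein that represses E2F target genes in resting cells, went the other way and fell from 446 and 506 CPM to 292 and 282 CPM (log2 fold change -0.74 ± 0.12). CDK2, the kinase that drives entry into S phase, also fell from 814 and 826 CPM to 619.7 and 721 CPM (log2 fold change -0.29 ± 0.09), but this call was lost without FEBJ 1 (log2 fold change -0.20) and under the scaling by all deposited rows (-0.07).

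Repair genes also rose more often than they fell. In the list of DNA damage response and repair, 10 of 16 tested genes rose and 0 fell, with a median of 0.67. With a 200 bp overlap 1 gene of this list fell, and with protein-coding rows read too 2 did. Of 83 own rows of the list tested, 30 rose and 14 fell, with a median of 0.27. MDC1, the scaffold that gathers repair proteins at marked chromatin beside breaks, rose from 467 and 443 CPM to 2193 and 2349 CPM (log2 fold change 2.32 ± 0.08). XPC, which finds bulky lesions for nucleotide excision repair, rose from 849 and 891 CPM to 2700.2 and 2902 CPM (log2 fold change 1.69 ± 0.06). XRCC1, the scaffold of single-strand break repair, rose from 431 and 455 CPM to 1353 and 1315 CPM (log2 fold change 1.59 ± 0.09), and POLK, a polymerase that copies past lesions, rose from 430.4 and 467 CPM to 961 and 981 CPM (log2 fold change 1.11 ± 0.10). These 4 genes were read from rows whose exons lay opposite for between 12.1 and 100% of their length. For REV3L, the catalytic subunit of another lesion-bypass polymerase, the level stood at 255 and 216 CPM with DMSO and 228 and 273 CPM with FEBJ (log2 fold change 0.10 ± 0.16, adjusted p = 0.565 in the edgeR test, adjusted by Benjamini-Hochberg).

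Spindle genes changed in both directions. Of 7 tested genes of mitosis, 4 rose and 2 fell, with a median of 0.44. The own rows, many more in number, mostly fell: of 121 tested, 16 rose and 56 fell, with a median of -1.37. HAUS2, a subunit of the augmin complex that branches spindle microtubules, rose from 622 and 674 CPM to 1827 and 1768 CPM (log2 fold change 1.47 ± 0.08). HMMR, a spindle assembly protein that also binds hyaluronan, rose from 719 and 633 CPM to 1323 and 1380.0 CPM (log2 fold change 1.01 ± 0.08), and SGO1, which guards centromeric cohesin, rose from 374 and 360.3 CPM to 617 and 636 CPM (log2 fold change 0.77 ± 0.11). NUMA1, which anchors dynein at the spindle poles and the cortex, fell from 3541 and 3702 CPM to 1750.0 and 1692 CPM (log2 fold change -1.08 ± 0.05), and CDC27, a core subunit of the anaphase-promoting complex, fell from 389.7 and 385 CPM to 159 and 159 CPM (log2 fold change -1.28 ± 0.15). PLK1, a mitotic kinase, stood at 1112 and 1083 CPM with DMSO and 1149 and 1162 CPM with FEBJ (log2 fold change 0.08 ± 0.08, adjusted p = 0.384 in the edgeR test, adjusted by Benjamini-Hochberg). Among centrosome genes CEP295, needed to turn new centrioles into centrosomes, rose from 353 and 416 CPM to 2844 and 2822 CPM (log2 fold change 2.87 ± 0.07), a 7.31-fold higher level. CEP131 rose too, with a log2 fold change of 1.35 ± 0.13, while NIN, CEP170 and CEP250 fell, with log2 fold changes of -1.74, -1.17 and -0.83. In the whole list of cilium and centrosome genes 3 of 10 rose and 3 fell, with a median of 0.22 whose sign changed under other settings.

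Genes for building ribosomes mostly rose in this reading. Ribosome biogenesis genes counted 9 rises and 0 falls among 11 tested, with a median of 0.89. Of 82 own rows of the list tested, 16 rose and 15 fell, with a median of -0.09. NOB1, the nuclease that makes the last cut in the small subunit RNA, rose from 590.1 and 594 CPM to 1508 and 1413 CPM (log2 fold change 1.30 ± 0.09). WDR74, a factor of large subunit assembly, rose from 498 and 457 CPM to 1247 and 1251 CPM (log2 fold change 1.39 ± 0.10). NOP14, which is needed early in small subunit assembly, rose from 1006 and 1048 CPM to 2833 and 2873 CPM (log2 fold change 1.47 ± 0.06). Both FEBJ libraries exceeded both DMSO libraries in each. Ribosomal protein genes could hardly be read this way, since 3 were tested and none passed the threshold in the edgeR test. RPL10 stood at 3565 and 3459 CPM with DMSO and 3449.8 and 3482 CPM with FEBJ (log2 fold change -0.02 ± 0.05, adjusted p = 0.734 in the edgeR test, adjusted by Benjamini-Hochberg), and under the scaling by all deposited rows its fold change was 0.19.

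Among 9 tested initiation, elongation and release factors 3 rose and 5 fell, with a median of -0.37. EIF2B2, a subunit of the exchange factor that recycles eIF2, rose from 213 and 252 CPM to 597 and 579 CPM (log2 fold change 1.33 ± 0.13). PAIP2, an inhibitor of poly(A)-binding protein, rose from 1771 and 1751 CPM to 2786 and 2878 CPM (log2 fold change 0.69 ± 0.05), and EIF4A2, an RNA helicase of the initiation complex, rose from 301 and 279 CPM to 572 and 485 CPM (log2 fold change 0.86 ± 0.13). EIF4E2, a cap-binding protein that blocks initiation on its targets, fell from 484 and 463 CPM to 222 and 165 CPM (log2 fold change -1.31 ± 0.12). EEF2K, the kinase that inactivates elongation factor 2, fell from 53.9 and 36.9 CPM to 6.89 and 14.8 CPM (log2 fold change -1.97 ± 0.39). The rises and falls thus cut across factors that promote and factors that restrain translation.

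Mitochondrial translation genes rose more often than they fell in this reading. Of 10 tested genes of the mitochondrial ribosome and its translation, 6 rose and 0 fell, with a median of 0.84. The median came to 0.15 with rows at least 50% opposite, where 2 of 5 rose, and to 0.27 with protein-coding rows read too, where 9 of 22 rose and 1 fell. Of 66 own rows of the list tested, 13 rose and 10 fell, with a median of -0.09. MRPS9 rose from 532 and 569 CPM to 1469 and 1357 CPM (log2 fold change 1.35 ± 0.08), MRPS11 rose from 572 and 525 CPM to 1191 and 1430.1 CPM (log2 fold change 1.26 ± 0.09) and MRPS2 rose from 859.8 and 873 CPM to 1681 and 1885 CPM (log2 fold change 1.04 ± 0.07), all 3 proteins of the small subunit. MRPL38, of the large subunit, rose from 609 and 642 CPM to 1331 and 1341 CPM (log2 fold change 1.09 ± 0.08). NDUFS7, an iron-sulfur subunit of respiratory complex I, rose from 1401 and 1502 CPM to 3101 and 3015 CPM (log2 fold change 1.07 ± 0.06), and SCO1, which delivers copper to cytochrome oxidase, rose from 261 and 237 CPM to 434 and 437 CPM (log2 fold change 0.81 ± 0.14). In the small list of nuclear respiratory chain genes, 4 of 5 rose and 0 fell, but 2 rose by DESeq2, and with protein-coding rows read too 9 rose and 4 fell of 18. Of their 77 own rows tested, 14 rose and 24 fell, with a median of -0.43. Genes of mitochondrial import, dynamics and metabolism were evenly split, with 4 rises and 5 falls among 15. There OPA1, which fuses inner membranes, fell from 197 and 183 CPM to 50.2 and 69.7 CPM (log2 fold change -1.64 ± 0.21). SLC25A24, a relative of SLC25A25 that moves the same substrates, fell from 633 and 613 CPM to 189 and 213 CPM (log2 fold change -1.63 ± 0.13). The carriers SLC25A24 and SLC25A25 thus moved in opposite directions.

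Splicing genes fell or did not pass the threshold. None of 9 tested genes rose and 6 fell, with a median of -0.75, although scaling by all deposited rows turned this into 2 rises and 5 falls, and reading protein-coding rows too into 5 rises and 9 falls of 22, with a median of -0.09. Of 110 own rows of the list tested, 10 rose and 53 fell, with a median of -1.18. PRPF8, the protein at the heart of the spliceosome, fell from 465 and 538 CPM to 159 and 151 CPM (log2 fold change -1.700 ± 0.14). HNRNPK and HNRNPM, which bind nascent transcripts and steer splice choice, fell from 2798 and 2807 CPM to 1399 and 1551 CPM (log2 fold change -0.92 ± 0.06) and from 605 and 600.0 CPM to 341 and 373 CPM (log2 fold change -0.75 ± 0.11). MBNL1, a splicing regulator of muscle and mesenchymal cells, fell from 157 and 159.6 CPM to 46.2 and 44.4 CPM (log2 fold change -1.80 ± 0.23). In these 4 genes both FEBJ libraries were below both DMSO libraries. Among genes of RNA decay and 3' end processing, with 4 rises and 4 falls of 13, EXOSC10, the nuclear exosome nuclease, rose from 815 and 907 CPM to 1965 and 1976 CPM (log2 fold change 1.19 ± 0.07). CPSF6, a cleavage factor that sets poly(A) site choice, fell from 67.2 and 43.2 CPM to 19.7 and 8.45 CPM (log2 fold change -2.01 ± 0.39).

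In the list of RNA polymerase II and its Mediator, 7 of 17 tested genes rose and 4 fell, with a median of 0.28 whose sign depended on the setting. MED15, a tail subunit of Mediator, rose from 188 and 187 CPM to 633 and 590.3 CPM (log2 fold change 1.701 ± 0.14), and MED26, through which Mediator recruits elongation factors, rose from 103 and 89.2 CPM to 208 and 229.7 CPM (log2 fold change 1.20 ± 0.20). POLR2I, a small subunit of the polymerase, rose from 296 and 325 CPM to 596 and 573 CPM (log2 fold change 0.91 ± 0.13). MED14, the backbone of Mediator, fell from 136 and 126 CPM to 16.7 and 40.2 CPM (log2 fold change -2.14 ± 0.25). The Mediator subunits were therefore not moved as a block.

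Chromatin genes fell most among the remodelling and acetylation factors. There 8 of 15 tested genes fell and 3 rose, with a median of -0.97. Over the settings this median ranged from -1.04 to -0.08, with 2 to 7 rises and 3 to 11 falls. Of 91 own rows of the list tested, 11 rose and 31 fell, with a median of -0.83. HDAC7, a class IIa histone deacetylase, fell from 693 and 657 CPM to 147 and 126 CPM (log2 fold change -2.32 ± 0.14). SMARCA5, the ATPase of ISWI remodellers, fell from 610.5 and 676 CPM to 269 and 259 CPM (log2 fold change -1.29 ± 0.11), and PCGF3, a Polycomb subunit, fell from 508 and 415 CPM to 181 and 170.5 CPM (log2 fold change -1.39 ± 0.13). HDAC3, the deacetylase of the NCoR complex, rose instead, from 527 and 647 CPM to 906 and 904 CPM (log2 fold change 0.61 ± 0.09), as did MBD3, a subunit of the NuRD complex, from 1057 and 994 CPM to 1456 and 1405 CPM (log2 fold change 0.48 ± 0.07). Histone methylation genes were split, with 5 rises and 3 falls of 11 and a median of -0.04 whose sign depended on the setting. DOT1L, which methylates histone H3 lysine 79, fell from 183 and 161 CPM to 77.7 and 76.8 CPM (log2 fold change -1.15 ± 0.21), and EHMT1, which methylates lysine 9, fell from 251 and 277 CPM to 141 and 114 CPM (log2 fold change -1.07 ± 0.17). SUV39H1, another lysine 9 methyltransferase, rose from 568 and 583 CPM to 808 and 773 CPM (log2 fold change 0.45 ± 0.10), and WDR5, a core subunit of the MLL complexes, rose from 9.16 and 9.06 CPM to 49.2 and 38.0 CPM (log2 fold change 2.24 ± 0.53).

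Zinc finger genes, the list with the most tested genes, had the most rises by count. Their share of rises, 60.9%, was below that of several smaller lists, such as the replication genes at 83.3%. Of 46 tested genes of this family, 28 rose and 3 fell, with a median of 0.96. Most of these genes encode DNA-binding proteins with tandem fingers, many of which silence retroelements through a KRAB domain, and the family shares related sequences. The own rows of the family can be counted as well: of 192 tested, 65 rose and 11 fell, with a median of 0.68. ZNF57 rose from 74.3 and 99.6 CPM to 976 and 1025 CPM (log2 fold change 3.50 ± 0.14), an 11.3-fold higher level. ZNF862 rose from 17.3 and 18.1 CPM to 247 and 261 CPM (log2 fold change 3.83 ± 0.25). ZNF770 and ZNF384, read at higher levels, rose from 1654 and 1686 CPM to 3623 and 3589.9 CPM (log2 fold change 1.11 ± 0.05) and from 1501 and 1562 CPM to 3067 and 3121 CPM (log2 fold change 1.01 ± 0.05). In the other direction ZNF22 fell from 1348 and 1284 CPM to 471 and 518 CPM (log2 fold change -1.40 ± 0.08) and ZNF217 fell from 250.3 and 264 CPM to 109 and 131 CPM (log2 fold change -1.09 ± 0.18). In each of these 6 genes the groups lay apart.

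Developmental transcription factors went both ways, with 8 rises and 12 falls among 26 and a median of -0.26 whose sign depended on the setting. KLF11, a Krüppel-like factor induced by TGF-beta, rose from 97.7 and 85.7 CPM to 485 and 543 CPM (log2 fold change 2.50 ± 0.17). SP9, a factor of limb and forebrain development, rose from 26.5 and 37.6 CPM to 196 and 224 CPM (log2 fold change 2.68 ± 0.25). TFAP2A, a factor of neural crest and skin, fell from 593 and 595 CPM to 156 and 141 CPM (log2 fold change -2.005 ± 0.13). Clock genes and nuclear receptors numbered 3 rises and 3 falls of 7. PER2, a repressor of the circadian loop, rose from 19.3 and 29.3 CPM to 189.9 and 173 CPM (log2 fold change 2.86 ± 0.27), while BMAL2, a partner of CLOCK, fell from 276 and 282 CPM to 124 and 120.5 CPM (log2 fold change -1.19 ± 0.17). NR2F1, an orphan nuclear receptor, fell from 187 and 199 CPM to 50.2 and 41.6 CPM (log2 fold change -2.09 ± 0.22), and RARA, the receptor for retinoic acid that stellate cells produce from their vitamin A stores, rose from 181 and 248 CPM to 371 and 381 CPM (log2 fold change 0.79 ± 0.15).

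All 8 tested immediate early genes rose, with a median of 1.03. These genes answer stimuli without the need for new protein and are known to last longer when translation is blocked. IER5L, a relative of the heat shock regulator IER5, rose from 334 and 339 CPM to 1139 and 1029 CPM (log2 fold change 1.68 ± 0.11). NR4A1, an orphan receptor induced by growth factors and stress, rose from 119 and 129 CPM to 249.9 and 299 CPM (log2 fold change 1.15 ± 0.16). The remaining members rose by between 0.30 for IER3 and 2.02 for CSRNP1, of which IER3 was named after its value was seen. Their own rows gave another picture, with 2 rises and 7 falls among the 24 own rows tested, with a median of -0.93.

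Genes at the entry of the secretory pathway mostly fell. Of 16 tested genes of folding and of the unfolded protein response in the endoplasmic reticulum, 11 fell and 2 rose, with a median of -0.85. Of 84 own rows of the list tested, 12 rose and 40 fell, with a median of -1.06. ERO1A, which oxidises the enzymes that form disulfide bonds, fell from 712 and 731 CPM to 239 and 230.4 CPM (log2 fold change -1.62 ± 0.10). P4HB, the protein disulfide isomerase that is also a subunit of collagen prolyl hydroxylase, fell from 11521 and 11342 CPM to 8307 and 8422 CPM (log2 fold change -0.45 ± 0.03). TMED2, a cargo receptor of the early secretory path, fell from 1769 and 1647 CPM to 805 and 804 CPM (log2 fold change -1.08 ± 0.06). HYOU1, a chaperone of the lumen, fell from 1304 and 1261 CPM to 758 and 746 CPM (log2 fold change -0.77 ± 0.07). In these 4 genes both FEBJ libraries lay below both DMSO libraries. SIL1, which exchanges the nucleotide of the chaperone BiP, rose from 261 and 224 CPM to 557 and 683 CPM (log2 fold change 1.37 ± 0.13), and OS9, a lectin that hands misfolded proteins to degradation, rose from 2073 and 2038 CPM to 2418 and 2418 CPM (log2 fold change 0.23 ± 0.05). EIF2AK3, the stress sensor kinase PERK, stood at 182 and 174 CPM with DMSO and 206 and 171 CPM with FEBJ (log2 fold change 0.08 ± 0.17, adjusted p = 0.695 in the edgeR test, adjusted by Benjamini-Hochberg).

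The promoters of this group are shown because most of its members fell and because a known element of the unfolded protein response can be searched in them. The element joins CCAAT, the site of NF-Y, to CCACG, the site of ATF6. In windows of 300 bases (250 before and 50 after each start in the RefSeq table, GRCh38.p14), CCACG was found on either strand in 10 of the 14 windows available for the list, against 38.1% of all 35116 windows, and CCAAT in 10 of 14, against 34.6%. The full form, CCAAT with 9 bases of any kind before CCACG, occurred in CALR alone of this list, against 0.0769% of all windows. The compact form, ATTGG with 1 base before CCACG, occurred in HYOU1 alone, where it was found 2 times, against 0.0541% of all windows. These spacings were searched after the single parts had been found, and the full form contains both parts. The 250 bases before the start are printed 5′ to 3′ on the strand of the gene, with CCAAT and CCACG of either strand in capitals. HYOU1 lies on the minus strand at chr11:119057206-119057455, CALR on the plus strand at chr19:12938359-12938608, EDEM1 on the plus strand at chr3:5187457-5187706 and OS9 on the plus strand at chr12:57693882-57694131. HYOU1 and CALR were picked after their values and matches were seen.
HYOU1: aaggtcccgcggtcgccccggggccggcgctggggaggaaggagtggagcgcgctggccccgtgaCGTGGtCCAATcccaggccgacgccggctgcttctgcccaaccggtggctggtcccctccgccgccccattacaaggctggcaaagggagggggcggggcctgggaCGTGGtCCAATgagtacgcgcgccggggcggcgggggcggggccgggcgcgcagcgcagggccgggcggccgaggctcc
CALR: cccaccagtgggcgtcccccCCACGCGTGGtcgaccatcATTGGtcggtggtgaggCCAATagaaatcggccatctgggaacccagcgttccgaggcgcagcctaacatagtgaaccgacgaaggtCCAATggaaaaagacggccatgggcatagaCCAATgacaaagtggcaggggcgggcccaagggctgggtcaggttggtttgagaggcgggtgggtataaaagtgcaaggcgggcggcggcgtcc
EDEM1: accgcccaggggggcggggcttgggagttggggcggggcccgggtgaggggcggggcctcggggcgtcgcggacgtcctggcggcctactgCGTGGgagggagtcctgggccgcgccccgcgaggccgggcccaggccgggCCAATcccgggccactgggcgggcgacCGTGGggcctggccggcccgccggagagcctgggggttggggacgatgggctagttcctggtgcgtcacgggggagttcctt
OS9: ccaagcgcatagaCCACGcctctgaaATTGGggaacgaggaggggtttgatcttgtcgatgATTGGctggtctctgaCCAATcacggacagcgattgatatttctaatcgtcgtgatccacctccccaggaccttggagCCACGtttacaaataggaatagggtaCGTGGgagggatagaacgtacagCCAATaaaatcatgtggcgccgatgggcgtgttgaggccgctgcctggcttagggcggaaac
HYOU1, CALR and EDEM1 fell, with log2 fold changes of -0.77 ± 0.07, -0.80 ± 0.06 and -2.56 ± 0.18, while OS9 rose by 0.23 ± 0.05. A match describes letters in a window and shows no binding. Other known elements were searched in the same way, in lists whose rises or falls are given elsewhere. TGACGTCA and TGANTCA, the sites of CREB and of AP-1, were in none of the 7 windows of immediate early genes, against 1.85 and 7.71% of all windows. TGATGNAAN, the site of ATF4, was in 2 of the 8 windows of the ATF4 list (CARS1 and GOT1), against 3.61%. The E2F sites TTTCGCGC and TTTGGCGC were in 2 (MCM2 and RBL1) and 1 (RBL1) of the 10 windows of replication genes, against 0.515 and 0.652%. TGACNNNGC, the antioxidant element, was in 1 of 5 windows of the NRF2 list (CBR1), against 13.3%, and GAANNTTC, the heat shock element, in 1 of 6 windows of cytosolic chaperones (HSPB6), against 6.77%. With so few windows a list, these counts are a description only.

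Vesicle coats and Golgi traffic were more evenly divided, with 10 rises and 14 falls of 36 and a median of -0.09 whose sign depended on the setting. SEC23A, a coat protein of vesicles that leave the endoplasmic reticulum, fell from 114 and 164 CPM to 36.4 and 26.1 CPM (log2 fold change -2.19 ± 0.25). GOLGA4, a tether of the trans-Golgi, fell from 180.1 and 134 CPM to 43.3 and 41.6 CPM (log2 fold change -1.88 ± 0.23), and TBC1D14, a protein of the Rab GTPase-activating family, fell from 2686 and 2767 CPM to 1158 and 1164 CPM (log2 fold change -1.23 ± 0.05). NAPA, which with NSF recycles SNARE complexes, rose from 647 and 746 CPM to 1103 and 1266 CPM (log2 fold change 0.76 ± 0.08). SNAP29, a SNARE of autophagosome fusion, rose from 227 and 199.99 CPM to 431 and 413 CPM (log2 fold change 0.99 ± 0.14), and TRAPPC6B, a subunit of a Golgi tethering complex, rose from 1188 and 1276 CPM to 1961 and 1999 CPM (log2 fold change 0.68 ± 0.06). The falls named here were therefore in a coat, a tether and a Rab regulator, and the rises in fusion and tethering factors.

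Glycosylation genes fell more often than they rose, 8 against 3 of 16 tested, with a median of -0.52. Of 89 own rows of the list tested, 24 rose and 21 fell, with a median of 0.04. GALNT2 and GALNT7, which start mucin-type O-glycans, fell from 2816 and 2624 CPM to 878 and 803 CPM (log2 fold change -1.696 ± 0.06) and from 243 and 259 CPM to 36.4 and 54.9 CPM (log2 fold change -2.43 ± 0.20). MGAT2, which turns hybrid into complex N-glycans, fell from 5546 and 5655 CPM to 1777 and 1913 CPM (log2 fold change -1.60 ± 0.04). ALG12, a mannosyltransferase of the lipid-linked precursor, rose from 483 and 474 CPM to 833 and 726 CPM (log2 fold change 0.70 ± 0.10), and MAN2A2, a Golgi mannosidase, rose from 774 and 817 CPM to 1195 and 1376 CPM (log2 fold change 0.69 ± 0.08). B4GALT1, which adds galactose to glycans, fell from 229.9 and 224 CPM to 41.3 and 46.5 CPM (log2 fold change -2.36 ± 0.20).

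Of the 8 genes of the cholesterol pathway that could be tested, among 81 listed, 5 fell and none rose, with a median of -1.09. In each of 3 other settings 1 gene rose: scaling by all deposited rows, no condition on the own row, and protein-coding rows read too. Of 46 own rows of the list tested, 11 rose and 14 fell, with a median of -0.39. LRP8, a lipoprotein receptor of the LDL family, fell from 408 and 463 CPM to 152 and 142 CPM (log2 fold change -1.57 ± 0.14). Both FEBJ libraries lay far below both DMSO libraries. SREBF2, the master regulator of the pathway, stood at 487 and 420.2 CPM with DMSO and 409 and 466 CPM with FEBJ (log2 fold change -0.04 ± 0.11, adjusted p = 0.755 in the edgeR test, adjusted by Benjamini-Hochberg).

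Fatty acid and phospholipid genes were split evenly, 6 rises and 6 falls of 15. ACLY, which makes cytosolic acetyl-CoA for lipid synthesis, fell from 1954 and 1809.7 CPM to 913 and 790.4 CPM (log2 fold change -1.15 ± 0.07). ECI2, an isomerase of fatty acid oxidation, fell from 207 and 242 CPM to 27.5 and 26.1 CPM (log2 fold change -3.07 ± 0.23), and PLIN3, a coat protein of lipid droplets, fell from 839 and 971 CPM to 417 and 469.9 CPM (log2 fold change -1.03 ± 0.10). GPAT4, which starts triglyceride synthesis, fell from 1577 and 1578 CPM to 908 and 889.7 CPM (log2 fold change -0.81 ± 0.07). CHKA, the first kinase of phosphatidylcholine synthesis, rose from 409 and 437 CPM to 1737 and 1731 CPM (log2 fold change 2.03 ± 0.09), and CPT2, which frees acyl groups for oxidation inside mitochondria, rose from 312 and 291 CPM to 729.9 and 910.2 CPM (log2 fold change 1.45 ± 0.11). DGAT2, which completes triglycerides, rose as well, with a log2 fold change of 2.15 ± 0.15. Members of synthesis and of oxidation were found among both the rises and the falls.

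Actin genes fell more often than they rose. Among 21 tested genes of the actin cytoskeleton and contraction, 1 rose and 12 fell, with a median of -0.61. Of 114 own rows of the list tested, 17 rose and 61 fell, with a median of -1.38. FLNC, a crosslinker of actin filaments found in muscle, fell from 5066 and 5060.4 CPM to 441 and 553 CPM (log2 fold change -3.33 ± 0.05), a 10.1-fold lower level. TPM1, a tropomyosin that stabilises filaments, fell from 6363 and 6575 CPM to 2116 and 2088 CPM (log2 fold change -1.62 ± 0.04). TMOD3, which caps their pointed ends, fell from 1762 and 1647 CPM to 584 and 521 CPM (log2 fold change -1.63 ± 0.07), and MYO9B, an unconventional myosin motor, fell from 884 and 904 CPM to 203 and 192 CPM (log2 fold change -2.19 ± 0.10). In these 4 genes both FEBJ libraries lay clearly below both DMSO libraries. SPTAN1, the alpha chain of non-erythroid spectrin, was the gene that rose, from 710.2 and 645 CPM to 1501 and 1586 CPM (log2 fold change 1.19 ± 0.08).

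**Figure D3:**
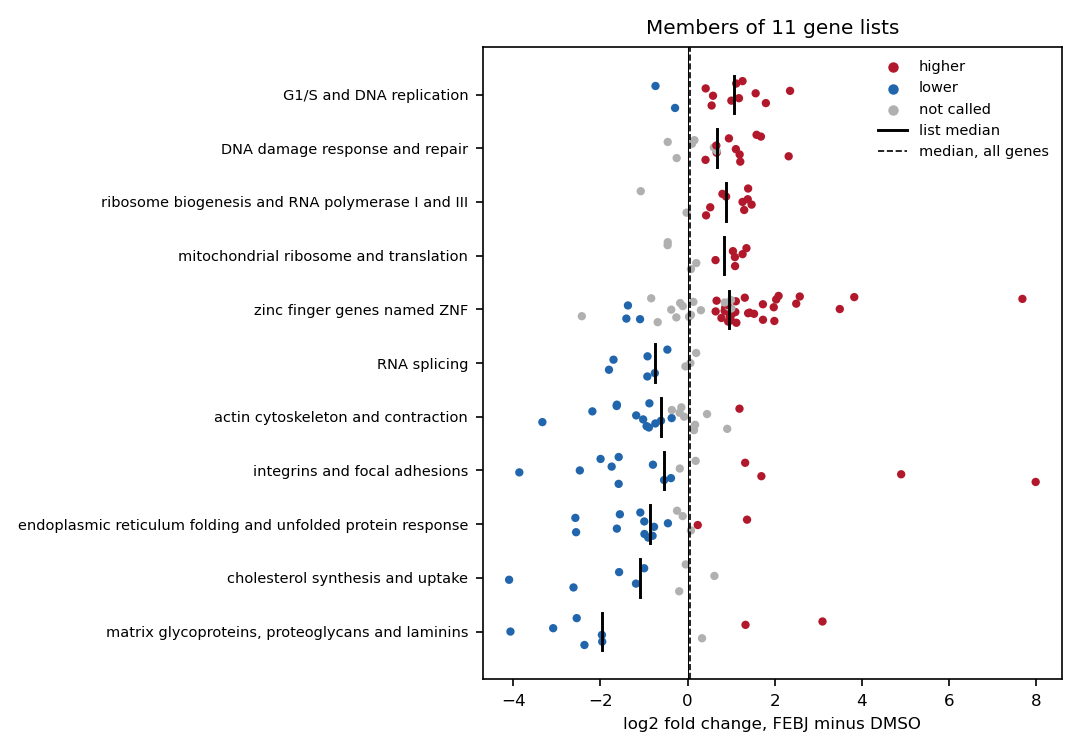
Log2 fold change of FEBJ over DMSO (horizontal axis) for every tested gene of 11 lists, 1 point a gene, with a bar at the list median, a dashed line at the median of all genes and colours for rose (higher), fell (lower) and not past the threshold (not called). Actin genes and genes of the endoplasmic reticulum lie mostly left of 0 and zinc finger and replication genes mostly right of it, each with called members on the other side; for the few points near 8 all DMSO libraries held almost no counts, so that their fitted fold is no measure of size.

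Microtubule genes were divided, with 7 rises and 8 falls of 19. The tubulin rows were among the highest of all: TUBA1B fell from 87254 and 86512 CPM to 40174 and 41868 CPM (log2 fold change -1.08 ± 0.01) and TUBB fell from 42087 and 42114 CPM to 10577 and 10544 CPM (log2 fold change -1.995 ± 0.02). Tubulin genes have near-identical copies, so how reads were shared among them is uncertain. KIF1C, a kinesin that carries cargo to the cell edge, fell from 969.6 and 941 CPM to 274 and 279.7 CPM (log2 fold change -1.78 ± 0.10). KIF13B, another kinesin, rose from 214 and 221 CPM to 734 and 781 CPM (log2 fold change 1.80 ± 0.13), while KATNA1, the severing enzyme katanin, rose from 144 and 142 CPM to 457 and 468 CPM (log2 fold change 1.69 ± 0.15), and MAP1S, a microtubule-associated protein, rose from 454 and 422 CPM to 1017 and 1031 CPM (log2 fold change 1.23 ± 0.10). The tubulins and KIF1C fell, and the other 3 rose.

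Genes of focal adhesions and cell contacts fell more often than they rose. In the integrin and focal adhesion list 9 of 15 tested genes fell and 4 rose, with a median of -0.54. Of 49 own rows of the list tested, 8 rose and 24 fell, with a median of -1.32. PXN, the adaptor paxillin, fell from 11059.8 and 11057 CPM to 3286 and 3322 CPM (log2 fold change -1.74 ± 0.03). YES1, a kinase of the SRC family, fell from 443 and 427 CPM to 153 and 138 CPM (log2 fold change -1.58 ± 0.15), and SORBS3, the adaptor vinexin, fell from 1987 and 2033 CPM to 1093 and 1219 CPM (log2 fold change -0.79 ± 0.06). ITGA1, the alpha chain of a collagen receptor, went the other way and rose from 35.6 and 22.3 CPM to 92.5 and 91.6 CPM (log2 fold change 1.696 ± 0.34). In the list of cadherins and junctions, 3 of 5 fell: CDH2, the N-cadherin of mesenchymal cells, fell from 1134 and 1097 CPM to 499 and 568 CPM (log2 fold change -1.06 ± 0.09), and NECTIN2, an adhesion molecule of adherens junctions, fell from 516 and 500.3 CPM to 90.5 and 102 CPM (log2 fold change -2.39 ± 0.15). CDH13, a cadherin anchored by a lipid and lacking a cytoplasmic tail, fell from 1669 and 1652 CPM to 932 and 894 CPM (log2 fold change -0.86 ± 0.07).

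Matrix genes outside the fibrosis panel fell too. Of 9 tested glycoproteins, proteoglycans and laminins, 6 fell and 2 rose, with a median of -1.97, the lowest of the 66 lists. Of 51 own rows of the list tested, 12 rose and 24 fell, with a median of -1.38. THBS1, which activates latent TGF-beta, fell from 183 and 182 CPM to 22.6 and 20.4 CPM (log2 fold change -3.09 ± 0.27). CSPG4, the proteoglycan NG2 of pericytes, fell from 2012 and 1999.9 CPM to 373 and 402 CPM (log2 fold change -2.37 ± 0.07). VCAN, a large hyaluronan-binding proteoglycan, fell from 46.8 and 50.2 CPM to 8.85 and 7.75 CPM (log2 fold change -2.55 ± 0.49). COL4A2, a chain of basement membrane collagen and a member of the separate collagen list, fell from 1379.7 and 1389 CPM to 323 and 347 CPM (log2 fold change -2.04 ± 0.08). In all 4, both FEBJ libraries lay far below both DMSO libraries. The collagen list was split, with 2 falls and 1 rise among 3 tested genes and log2 fold changes from -2.04 to 2.56. THBS3 and THBS4, relatives of THBS1, rose from 136 and 101 CPM to 298 and 292 CPM (log2 fold change 1.33 ± 0.17) and from 12.2 and 5.57 CPM to 79.7 and 66.9 CPM (log2 fold change 3.10 ± 0.43), so the thrombospondins did not move as one.

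**Figure D4:**
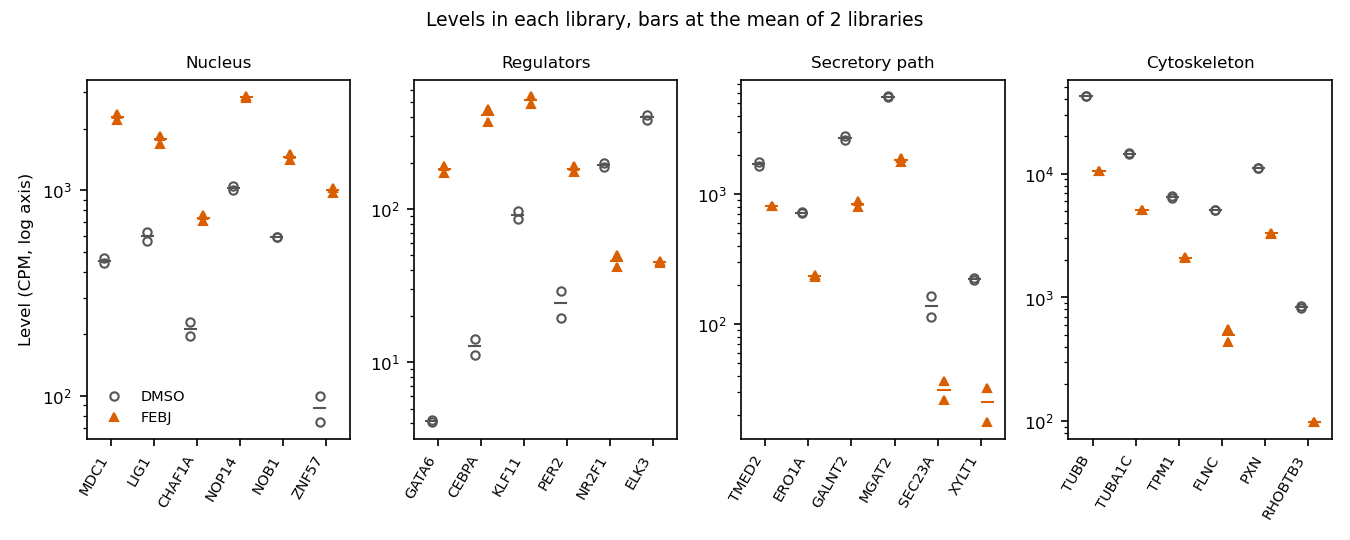
Level in CPM (log axis) of 6 genes in each of 4 sets, with 1 open circle for each DMSO library, 1 triangle for each FEBJ library and a bar at the mean of 2 libraries. In each gene the FEBJ pair is apart from the DMSO pair, and in most the 2 libraries of a group lie close together. They lie less close in XYLT1 with FEBJ and in SEC23A and PER2 with DMSO.

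The growth factor signalling lists held few tested genes, and their counts are read against the 35.9 and 34.6% of all genes. Ligands and receptors numbered 4 falls and 2 rises of 10, with a median of -0.44. GAS6, the ligand of the receptor AXL, fell from 879 and 962 CPM to 175 and 223 CPM (log2 fold change -2.19 ± 0.10). BDNF, a neurotrophin, fell from 392 and 431 CPM to 71.8 and 97.2 CPM (log2 fold change -2.26 ± 0.17). EGFR, the receptor of epidermal growth factor, fell from 171 and 149.8 CPM to 34.4 and 29.6 CPM (log2 fold change -2.33 ± 0.25). Both FEBJ libraries were below both DMSO libraries in these 3 genes. EFNB2, a membrane-bound ligand of Eph receptors, rose from 247 and 215 CPM to 741 and 771 CPM (log2 fold change 1.72 ± 0.12).

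Below the receptors, the MAP kinase list held 4 rises and 5 falls of 14, with a median of -0.08 whose sign depended on the setting. MAP3K20, the stress kinase ZAK that senses stalled ribosomes, fell from 336 and 318 CPM to 110.2 and 149 CPM (log2 fold change -1.32 ± 0.16). The scaffolds KSR1 and MAPK8IP1 rose from 112 and 157 CPM to 367 and 350.1 CPM (log2 fold change 1.39 ± 0.16) and from 245 and 229 CPM to 537 and 671 CPM (log2 fold change 1.36 ± 0.13). In the PI3K list, 4 of 11 fell and 2 rose. The kinase AKT1 fell from 3005 and 2678 CPM to 859.7 and 952 CPM (log2 fold change -1.64 ± 0.06), while RPS6KB2, a ribosomal S6 kinase, rose from 1029.7 and 1042 CPM to 2429.7 and 2378 CPM (log2 fold change 1.21 ± 0.06).

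Of 6 tested genes of the TGF-beta and BMP list, 4 fell and none rose, with a median of -1.66. Of 44 own rows of the list tested, 8 rose and 16 fell, with a median of -0.42. ENG, the co-receptor endoglin, fell from 1182 and 1261 CPM to 273 and 257 CPM (log2 fold change -2.21 ± 0.10), and GREM1, a secreted BMP antagonist, fell from 1269 and 1332 CPM to 368 and 318 CPM (log2 fold change -1.93 ± 0.09). The other 2 genes, the signal transducer SMAD1 and the receptor ACVR2A, were not called in the edgeR test, adjusted by Benjamini-Hochberg: SMAD1 had a log2 fold change of 0.38 ± 0.26 (adjusted p = 0.173) and ACVR2A of 0.35 ± 0.66 (adjusted p = 0.65). Under the scaling by all deposited rows SMAD1 was called higher, at 0.60 (adjusted p = 0.0363 in that edgeR fit). In the Hippo list, 4 of 7 fell and 2 rose, with a median of -1.57. YAP1, the co-activator the pathway restrains, fell from 2123 and 2147 CPM to 694 and 745 CPM (log2 fold change -1.57 ± 0.07). TLE5, a short co-repressor of Wnt and Notch targets, fell from 3923 and 4269 CPM to 2367 and 2147 CPM (log2 fold change -0.86 ± 0.04).

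Of 17 tested genes of NF-kB, TNF and interleukin signalling, 8 fell and 4 rose, with a median of -0.80 that turned to 0.24 when no condition was set on the own row. IL6ST, the shared receptor chain gp130, fell from 1617 and 1705 CPM to 928 and 982 CPM (log2 fold change -0.80 ± 0.07). BCL10, an adaptor upstream of NF-kB, rose from 133 and 142 CPM to 307 and 252 CPM (log2 fold change 1.01 ± 0.17). Interferon genes counted 5 rises and 2 falls of 10, with a median of 0.79. MX1, an antiviral GTPase, rose from 24.4 and 32.8 CPM to 138 and 142 CPM (log2 fold change 2.27 ± 0.29), and IFNAR2, a chain of the type I interferon receptor, fell from 275 and 298 CPM to 183 and 159 CPM (log2 fold change -0.76 ± 0.15). The signalling genes of G proteins were mixed, 3 rises and 6 falls of 12. GNB4 and GNA11, subunits of G proteins, fell from 1106 and 979.7 CPM to 273 and 236 CPM (log2 fold change -2.04 ± 0.10) and from 2551 and 2424 CPM to 1176 and 1124 CPM (log2 fold change -1.11 ± 0.06). Of the rises in this list, GPR146 is given further below. AKAP8L, a nuclear anchoring protein of the cyclic AMP list, rose from 367 and 409.7 CPM to 1342 and 1364 CPM (log2 fold change 1.79 ± 0.09). In the cyclic AMP list 3 of 9 tested genes rose and 2 fell, with a median of 0.12 whose sign depended on the setting.

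Protein turnover moved in both directions. Among ubiquitin, conjugating enzymes and deubiquitinases 6 of 16 rose and 7 fell. UBB, a polyubiquitin gene, rose from 18947 and 19278 CPM to 32768 and 32332 CPM (log2 fold change 0.77 ± 0.02). CUL3, the scaffold of KEAP1 and other ligases, fell from 1120.2 and 1081 CPM to 431 and 491 CPM (log2 fold change -1.25 ± 0.09), and SENP8, which processes NEDD8, rose from 26.5 and 14.6 CPM to 106 and 134 CPM (log2 fold change 2.60 ± 0.31). The RING, F-box and Kelch genes numbered 12 rises and 15 falls of 41. TRIM8 fell from 1092 and 1061 CPM to 237 and 192 CPM (log2 fold change -2.34 ± 0.11) and RNF213 fell from 571 and 658 CPM to 127 and 141 CPM (log2 fold change -2.19 ± 0.13), both ligases linked to interferon responses, while RNF40, which ubiquitinates histone H2B, rose from 2230.3 and 2240.3 CPM to 4239 and 4253 CPM (log2 fold change 0.93 ± 0.05). In the proteasome list ADRM1 and PSMD7, subunits of the regulatory particle, rose from 1795 and 1840.3 CPM to 3501 and 3558 CPM (log2 fold change 0.96 ± 0.05) and from 1853 and 1861 CPM to 2754 and 2868 CPM (log2 fold change 0.60 ± 0.05). NFE2L1, the factor that restores proteasome genes after inhibition, fell from 1819 and 1779.7 CPM to 878 and 952 CPM (log2 fold change -0.97 ± 0.06). That list held 3 rises and 3 falls of 8.

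Cytosolic chaperones held 3 rises and 1 fall among 7. HSPA4L, a relative of the nucleotide exchange factor HSP110, rose from 20.3 and 24.4 CPM to 159 and 128 CPM (log2 fold change 2.66 ± 0.30), and FKBP4, a co-chaperone of steroid receptors, rose from 1688 and 1733 CPM to 2052 and 2028 CPM (log2 fold change 0.25 ± 0.06). CCT5, a subunit of the chaperonin that folds actin and tubulin, fell from 7123 and 7265 CPM to 5002 and 5271 CPM (log2 fold change -0.49 ± 0.04). Endosome and lysosome genes rose in 11 of 23 and fell in 8, with a median of 0.25 whose sign depended on the setting. HGS, which sorts ubiquitinated cargo into endosomes, rose from 2399 and 2288 CPM to 5554 and 5686 CPM (log2 fold change 1.26 ± 0.05). VPS51 and VPS52, subunits of the tethering complexes GARP and EARP, rose from 593 and 617 CPM to 1426 and 1379 CPM (log2 fold change 1.21 ± 0.09) and from 600.3 and 574 CPM to 1406 and 1527 CPM (log2 fold change 1.32 ± 0.08). CAVIN2, a coat protein of caveolae, fell from 352 and 423 CPM to 92.5 and 78.2 CPM (log2 fold change -2.20 ± 0.17). Autophagy genes were split, 3 rises and 3 falls of 10: ATG101, a subunit of the initiating kinase complex, rose from 918 and 872 CPM to 1708 and 1511 CPM (log2 fold change 0.85 ± 0.07), and WDFY3, which recruits aggregates, fell from 166 and 157 CPM to 31.5 and 57.1 CPM (log2 fold change -1.82 ± 0.22).

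Nuclear transport genes fell in 5 of 10 and rose in 3, with a median of -0.18 whose sign depended on the setting. XPO1, the main exporter of proteins, fell from 4046 and 4229 CPM to 2905 and 2974 CPM (log2 fold change -0.49 ± 0.04), and KPNB1, the main importer, fell from 4645 and 4538 CPM to 3162 and 3235 CPM (log2 fold change -0.52 ± 0.04). TMPO, a lamina-associated protein, fell from 2134 and 2015 CPM to 868 and 919 CPM (log2 fold change -1.21 ± 0.06). NUP37, of the outer ring of the pore, rose from 156 and 138 CPM to 306 and 309 CPM (log2 fold change 1.07 ± 0.17). Exporter, importer and lamina genes fell while this pore subunit rose.

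Metabolic genes followed no single direction. Genes of nucleotide and one-carbon metabolism counted 6 rises and 3 falls of 14, with a median of 0.40, and 10 and 2 when scaled by all deposited rows. IMPDH2, the rate-limiting enzyme of guanine nucleotide synthesis, rose from 627 and 661 CPM to 1157 and 1168 CPM (log2 fold change 0.85 ± 0.09), and NT5C, a nucleotidase, rose from 543 and 626 CPM to 1872 and 1869.7 CPM (log2 fold change 1.67 ± 0.08). In the list of ATF4 and amino acid supply, 6 of 11 fell and 3 rose, with a median of -0.36. GOT2, the mitochondrial aspartate aminotransferase, fell from 712 and 646 CPM to 316 and 273 CPM (log2 fold change -1.21 ± 0.11), and PYCR1, the last enzyme of proline synthesis, fell from 938 and 946 CPM to 578 and 553 CPM (log2 fold change -0.74 ± 0.09), whereas the cytosolic enzyme GOT1 rose from 6.10 and 6.97 CPM to 42.3 and 34.5 CPM (log2 fold change 2.52 ± 0.64). The aminotransferases thus changed in opposite directions. Of the NRF2 list 4 of 6 rose and 2 fell, PRDX2, a thiol peroxidase, from 950.3 and 930.3 CPM to 1284 and 1366 CPM (log2 fold change 0.50 ± 0.07). HIF1A, the oxygen-regulated factor, fell from 744 and 916 CPM to 496 and 469.9 CPM (log2 fold change -0.79 ± 0.10). STEAP3, the ferrireductase of endosomes, fell from 254 and 292 CPM to 41.3 and 45.8 CPM (log2 fold change -2.64 ± 0.20).

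Ion channel and calcium genes numbered 10 rises and 9 falls of 23, with a median of -0.19 whose sign depended on the setting. CALM3, a calmodulin gene, fell from 3277 and 3297 CPM to 507 and 607 CPM (log2 fold change -2.55 ± 0.06). KCNMA1, the large-conductance potassium channel, fell from 477 and 455 CPM to 107 and 112 CPM (log2 fold change -2.08 ± 0.15). CLCN7, the chloride-proton exchanger of lysosomes, rose from 1471 and 1590.2 CPM to 5105 and 5040.4 CPM (log2 fold change 1.73 ± 0.05). In CALM3 and KCNMA1 both FEBJ libraries lay far below both DMSO libraries, and in CLCN7 far above them. RGMB, a co-receptor of BMP and neogenin signals, fell from 10333 and 10482 CPM to 1527 and 1646 CPM (log2 fold change -2.71 ± 0.04).

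Death and p53 genes were mixed. Of 9 tested apoptosis genes 2 rose and 4 fell, and of 6 tested p53 targets 2 rose and 1 fell. Both medians were near 0 and changed sign in other settings. XPC, described above as a repair gene, is also a p53 target and had the highest log2 fold change of that list, 1.69. In the apoptosis list the highest log2 fold change was 2.15. BOK, a pro-apoptotic relative of BAX, fell from 226 and 238 CPM to 77.7 and 54.2 CPM (log2 fold change -1.84 ± 0.20). DFFA, the inhibitor of the apoptotic nuclease, fell from 223 and 240.4 CPM to 108 and 131 CPM (log2 fold change -0.95 ± 0.17). MDM2, the ligase that degrades p53 and is itself a p53 target, fell from 540.3 and 524 CPM to 331 and 344 CPM (log2 fold change -0.66 ± 0.12). TNFRSF10A, a TRAIL receptor and p53 target, stood at 22.4 and 14.6 CPM with DMSO and 8.85 and 9.86 CPM with FEBJ (log2 fold change -0.95 ± 0.66, adjusted p = 0.19 in the edgeR test, adjusted by Benjamini-Hochberg).

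The same libraries allow a direct test of FEBJ against cynaroside, in which 1001 of 1440 genes differed, 69.5% of those tested. The DMSO libraries enter neither side of this test. CEBPA held 16.5 and 2.04 CPM with cynaroside, and its level with FEBJ was higher by 6.09 ± 0.29 on the log2 scale (adjusted p = 2.77e-91 in the edgeR test, adjusted by Benjamini-Hochberg). The cynaroside libraries were far apart in CEBPA, which neither this standard error nor this p reflects. In NOB1 and WDR74, of ribosome biogenesis, FEBJ was higher too: NOB1 held 401 and 369 CPM with cynaroside and WDR74 226 and 265 CPM, with differences of 1.94 ± 0.09 and 2.31 ± 0.10. FLNC held 3882 and 3785 CPM with cynaroside, and FEBJ differed by -2.93 ± 0.05. These 4 genes were picked after their values were seen, and say nothing of the lists they belong to.

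Several genes changed strongly against DMSO while FEBJ and cynaroside were closer. DENND6B, a regulator of Rab proteins, rose from 22.4 and 17.4 CPM to 225 and 192 CPM (log2 fold change 3.41 ± 0.25) with FEBJ and held 151 and 148 CPM with cynaroside, a difference between the agents of 0.48 ± 0.20 on the log2 scale. For PLEKHM1, an adaptor of lysosome fusion that rose by 2.76 ± 0.36 with FEBJ, the cynaroside libraries held 77.8 and 61.6 CPM and the difference was 0.28 ± 0.29 (adjusted p = 0.406 in the edgeR test, adjusted by Benjamini-Hochberg). GPR146, a receptor coupled to G proteins that rose by 2.29 ± 0.22, held 177 and 148 CPM, with a difference of 0.37 ± 0.19 (adjusted p = 0.0722 in the same edgeR test). HMGCS1, of cholesterol synthesis, fell (log2 fold change -1.18 ± 0.09) and held 577 and 516 CPM with cynaroside, a difference of -0.08 ± 0.10 (adjusted p = 0.482 in the same edgeR test). A p above the threshold, as for PLEKHM1, GPR146 and HMGCS1, does not show that both agents acted alike on a gene. All 4 genes, DENND6B included, were picked after their values were seen.

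The row of the gene itself did not always follow the row opposite to it. Of all 12012 tested rows, 50.8% were called. Of 965 genes with both rows tested, 336 were called in both, 257 of them in the same direction and 79 in opposite directions. Protein-coding rows with no exon opposite any other gene fell far more often than they rose, 1348 against 467 of 3892 tested, with a median log2 fold change of -1.03. Own rows of cytosolic ribosomal proteins fell in 48 of 76 and rose in 3, with a median of -1.37. The cause of this difference between rows was not tested. With the reading limited to rows that lie opposite the gene for at least 50% of their exon length, 228 of 575 genes rose and 206 fell.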

How the data were processed

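Total RNA of LX-2 cells was sequenced in 6 libraries, 2 a group. Per the submitters' processing notes, CASAVA 1.7, HISAT2, HTSeq 0.12.4, DESeq2 1.38.0 and the hg19 build were used, and the deposited values are raw counts per gene made by the authors. Kit, strand setting and annotation release were not given in the sources used here. Without the strand setting, overlapping rows stay uncertain. The 5 summary rows were left out (the row for reads outside features held 87.4 to 88.3% of all counts), and 62754 gene rows remained.

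Opposite exons were found in GENCODE 29 on GRCh38, which holds 58261 of these rows. No position from it is printed, since the builds differ. A non-coding row was read where at least 50 bp of its exons lay opposite a single gene, a protein-coding one, and it held at least as many counts as that gene's own row. Rows of 1 gene were summed.

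Counts of all 6 libraries were fitted with edgeR 4.0.16 in R 4.3.3 (filterByExpr, TMM scaling, 3 group means, 3 residual degrees of freedom, quasi-likelihood test with Benjamini-Hochberg adjustment). All genes read shared a single dispersion trend, so the standard errors and p-values of single genes do not follow their own spread. On simulated counts for the 1440 genes, 76% of genes changed 1.5-fold and 96% changed 2-fold were recovered, and 0.49% of unchanged genes were called. In the simulation all genes had the same dispersion and most were unchanged, while 70.5% of the genes read were called here. These simulated shares therefore need not hold for the real libraries. Named genes are the 15 largest rises and 15 largest falls with a mean of at least 50 CPM and groups that do not overlap, in each list up to 4 rises and 4 falls with the smallest p and up to 2 genes not called with the highest mean, and the 10 genes with the highest mean. The members and the lists were chosen with earlier results of these data known, so a list's count is no independent evidence. Same-numbered libraries of DMSO and FEBJ did not deviate together over the genes read (correlation 0.03), and the main fit used no pairing. With 2 libraries a group this correlation cannot show whether same-numbered libraries were prepared together. Promoters came from RefSeq by symbol, for 1170 of the 1440 genes. Some genes and 1 list are not reported here.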

Additional observations from a re-analysis of the deposited data

How the results depend on the processing

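The counts of 517 rises and 498 falls stayed within 1.5 times under RLE and upper-quartile scaling, other filters, a replicate block, the 4 libraries alone, DESeq2 1.42.0 (463 and 459), a larger prior count, a 200 bp overlap and no condition on the own row. Leaving out 1 library at a time gave 445 to 458 rises and 443 to 469 falls. With the replicate block 512 rose and 494 fell. Counts followed the number of genes tested: with protein-coding rows read too, 804 rose and 785 fell of 2284, and with rows at least 50% opposite, an alternative chosen after seeing the data, 228 rose and 206 fell of 575. Scaling by all deposited rows raised the median of all genes by 0.21 and gave 604 rises and 417 falls, so 59.2% of the calls were rises against 50.9%. Among named genes called in the main fit or under this scaling, ARHGDIA (0.038), CERS2 (0.0044), FADD (0.0076), RPL10 (0.19) and SNAP23 (0.19) changed sign. Changes of sign in genes called in neither fit were not counted, here or in the settings that follow. AKAP13 changed sign with no condition on the own row (-0.47), as did SLC30A4 with a 200 bp overlap (-0.84). Of the named genes, 157 of 185 rises and 165 of 190 falls kept their call in each setting that tested them. Only 80 of these rises and 83 of these falls were tested in every setting, and 70 and 71 of them kept their call. For the deposited rows, leaving out 1 library gave 2422 to 2626 rises and 2119 to 2421 falls.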
